A study of Mus musculus with 14 samples.

Results

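The 9 genes described here belong to the interleukin-6 (IL-6) family: the cytokines Il6, Lif and Clcf1, the receptor chains Il6st, Lifr, Osmr, Il6ra and Il11ra1, and the feedback inhibitor Socs3. They were chosen by gene symbol from a table of 49315 genes, and each symbol matched 1 row. RNA was measured by polyA-selected sequencing of left ventricles from male mice, 5 weeks after surgery done at 10 to 12 weeks of age. The mice were wild type (WT) or carried HCN4F, a knock-in line in which phenylalanine replaces a tyrosine of the pacemaker channel HCN4, an exchange made to increase channel activity. Each genotype received either a Sham operation or transverse aortic constriction (TAC), which narrows the aorta and loads the left ventricle with pressure. There were 4 WT-Sham, 2 WT-TAC, 4 HCN4F-Sham and 4 HCN4F-TAC libraries, 14 in all. The WT-TAC libraries were replicates 2 and 3, and the other samples of that group were not analysed here. The knock-in allele is present in every cell of the animal, so effects in the ventricle and effects that follow from heart rate cannot be told apart in these groups.

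IL-6 family cytokines act through gp130, the protein encoded by Il6st, which pairs with a chain that recognises the ligand. Il6ra binds IL-6, Il11ra1 binds IL-11, Lifr serves LIF and related ligands, and Osmr serves oncostatin M. Ligand binding activates Janus kinases and the transcription factor STAT3, and STAT3 switches on Socs3, whose protein binds gp130 and ends the signal. In the heart this pathway is known for its roles in hypertrophy and in survival of cardiac muscle cells under stress.

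The promoter sequences of Socs3, Lif and Lifr are shown because these were the members that passed the test between TAC and Sham. Each stretch holds the 250 bases before a RefSeq transcript start (GRCm38.p6), written 5′ to 3′ on the strand of the gene. Capitals mark a match to a searched motif. The Socs3 stretch is chr11:117969367-117969616 on the minus strand, with a STAT motif (TTCNNNGAA) at bases 154 to 146 before the start. The Lif stretch is chr11:4257318-4257567 on the plus strand, with an AP-1 motif (TGANTCA) at bases 228 to 222 before the start. The Lifr stretch is chr15:7129322-7129571 on the plus strand, before the more upstream of its RefSeq starts, and has no match. The GENCODE M21 annotation begins Socs3 and Lifr further upstream, so their stretches lie inside the gene spans given below.
Socs3: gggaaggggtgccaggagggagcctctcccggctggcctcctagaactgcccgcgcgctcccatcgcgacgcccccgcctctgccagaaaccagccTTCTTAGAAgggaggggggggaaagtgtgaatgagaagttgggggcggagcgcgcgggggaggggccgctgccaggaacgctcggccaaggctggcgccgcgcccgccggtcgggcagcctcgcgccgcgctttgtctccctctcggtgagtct
Lif: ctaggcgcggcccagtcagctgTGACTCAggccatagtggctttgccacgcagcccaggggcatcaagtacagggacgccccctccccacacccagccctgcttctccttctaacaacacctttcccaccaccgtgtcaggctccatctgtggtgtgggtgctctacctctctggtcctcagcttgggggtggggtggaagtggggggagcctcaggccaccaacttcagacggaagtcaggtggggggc
Lifr: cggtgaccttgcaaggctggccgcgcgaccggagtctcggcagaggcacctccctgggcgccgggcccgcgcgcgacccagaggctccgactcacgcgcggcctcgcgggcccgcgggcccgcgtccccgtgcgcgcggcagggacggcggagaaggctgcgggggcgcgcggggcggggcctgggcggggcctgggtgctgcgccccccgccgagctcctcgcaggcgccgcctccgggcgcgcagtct

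Both strands were searched for the STAT motif, the AP-1 motif and the cAMP response element TGACGTCA, and these motifs do not overlap in the stretches above. RefSeq stretches were found for 8 of the 9 members, 10 stretches in all. Clcf1 was not matched. The STAT motif was present in 1 of the 10 stretches, that of Socs3, and in 7.02% of 32851 stretches of the same length from all genes. The AP-1 motif was present in the stretches of Lif and of Il6, where it lay at bases 249 to 243 before the start, and in 6.75% of all stretches. The cAMP response element was in none of the members' stretches and in 1.55% of all. These matches describe letters in a window and were not tested as binding sites.

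On GRCm38, with the GENCODE M21 annotation, the members are spread over 7 chromosomes. The cytokine genes are Il6 at chr5:30013114-30019981 (plus strand), Lif at chr11:4257557-4272514 (plus strand) and Clcf1 at chr19:4214238-4223490 (plus strand). Of the receptor genes, Lifr at chr15:7090614-7197489 (plus strand) and Osmr at chr15:6813577-6874969 (minus strand) share a chromosome. Il6st lies at chr13:112464070-112510086 (plus strand), Il6ra at chr3:89864059-89913196 (minus strand) and Il11ra1 at chr4:41699989-41769474 (plus strand). Socs3 lies at chr11:117966079-117970047 (minus strand). Counts are per gene and do not separate isoforms.

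The libraries held 22309914 to 35210939 counts, with a median of 27676182. Levels are in CPM, a gene's counts scaled to the size of its library. Where no read was counted, up to 3 reads remain possible (counting error only), which is 0.0852 to 0.134 CPM before scaling between libraries. The 6 cardiac muscle markers, of which Myl2 is the ventricular one, summed to 48000 to 67100 CPM. Hcn4 itself was measured at 8.07 to 10.6 CPM in WT-Sham and 6.36 to 13.0 CPM in HCN4F-Sham, and because the allele exchanges 1 amino acid its level does not check the genotype. After TAC it was 11.9 to 13.5 CPM in the 2 WT hearts and 3.49 to 9.07 CPM in HCN4F. These ranges did not overlap, as for 22.2% of all genes tested below, and no test of Hcn4 is given. The library labelled HCN4F-TAC replicate 2 stood apart in atrial muscle markers (Sln, Myl7, Myl4 and Bmp10), with a summed level of 31.1 CPM against 1.24 to 5.04 CPM in the other 13. The calls of members, pathway genes and marker genes that are lost in HCN4F hearts without it are named beside them. Nothing in the labels names a batch.

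The receptor chains were the abundant members and the cytokines the rare ones. Levels between genes were compared as CPM per kilobase of exon (all annotated exons of a gene merged), averaged over the 14 libraries. Il6st was highest at 14.9 (12.1 to 17.6) and Il11ra1 followed at 11.9 (10.4 to 14.4), so their ranges overlapped. Lifr, at 3.99 (2.11 to 5.02), was below both in every library. Socs3 averaged 2.67 (1.43 to 7.27) and Osmr 1.45 (1.11 to 1.98), and the range of Socs3 overlapped that of each neighbour. Il6ra, at 0.827 (0.646 to 1.04), was below every Osmr value. Clcf1 averaged 0.295 (0.165 to 0.465), below every Il6ra value. Lif averaged 0.1 (0.0347 to 0.21) and Il6 0.0357 (0 to 0.256), and the ranges of Clcf1, Lif and Il6 overlapped. Some levels carry a limit of the annotation: Il11ra1 has near-identical copies in the genome, and exons of Clcf1 share 311 bases with another gene on the same strand, so their counts are uncertain. An antisense gene covers 242 bases of the Il6ra exons, and whether reads were counted by strand is not stated.

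**Figure D1:**
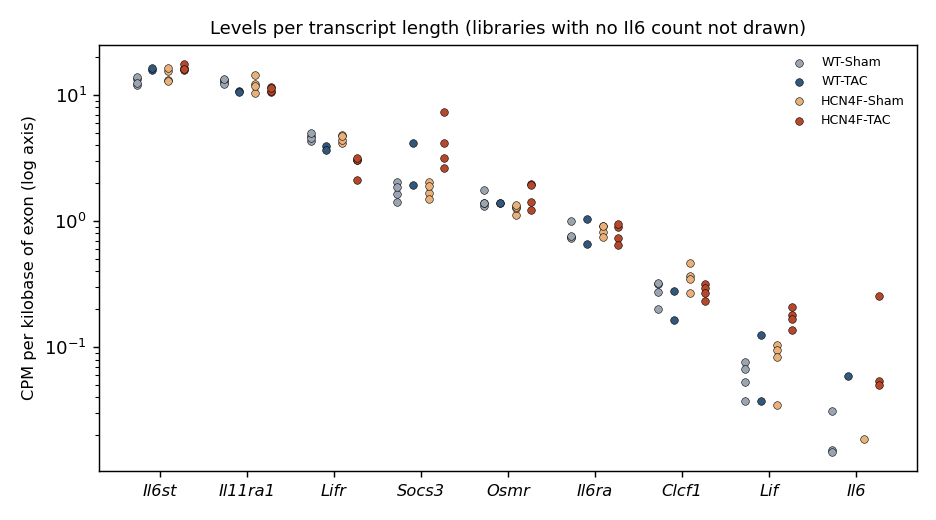
Level of each member in CPM per kilobase of exon (log axis), 1 point per library, coloured by group; libraries with no Il6 count are not drawn. The members run from Il6st, with a mean of 14.9, down to Lif at 0.1 and Il6 at 0.0357.

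Across the 14 libraries the CPM of Lif varied most among the tested members, with its highest value 6.04 times its lowest, followed by Socs3 at 5.08 times. Clcf1 and Lifr spanned 2.81 and 2.38 times. Osmr, Il6ra, Il6st and Il11ra1 varied by 1.78, 1.6, 1.46 and 1.38 times. For Lif the lowest and highest libraries held 4 and 22 counts, so its lowest levels lie near the counting limit.

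Pressure overload in HCN4F hearts moved 3 of the 8 tested members: Socs3 and Lif rose and Lifr fell. Genes were tested in edgeR with the quasi-likelihood F test, p-values were adjusted over 15292 genes by the Benjamini-Hochberg method, and a gene passed at an adjusted p under 0.05. Of all tested genes 7.2% rose and 6.41% fell in this comparison. Those 1101 and 980 genes became 742 and 587 without HCN4F-TAC replicate 2, and 701 and 586 with edgeR on the HCN4F hearts alone. Socs3, Lif and Lifr were also the 3 members whose groups did not overlap, as for 15.1% of all tested genes. The members' median log2 fold change was 0.06, against -0.0067 over all tested genes. Without HCN4F-TAC replicate 2 the count was 2, since Lif missed the threshold (adjusted p = 0.0531). Il6 had too few counts for this model.

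Socs3 was measured at 5.91, 4.79, 5.50 and 4.35 CPM in HCN4F-Sham replicates 1 to 4 and at 21.0, 9.19, 7.59 and 11.96 CPM in HCN4F-TAC replicates 1 to 4. Every TAC heart was above every Sham heart, and TAC replicate 1 was far above the other 3. The group means were 5.14 ± 0.699 and 12.4 ± 6.0 CPM (SD, n = 4 each). The fitted change was 2.41-fold, a log2 fold change of 1.27 with a standard error (SE) of 0.31 (edgeR, adjusted p = 0.0165). Without TAC replicate 1 the log2 fold change was 0.90 and the adjusted p 0.0228.

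Lif, the ligand of the Lifr and gp130 pair, was measured at 0.452, 0.411, 0.362 and 0.151 CPM in the HCN4F-Sham hearts. In the HCN4F-TAC hearts it stood at 0.912, 0.593, 0.777 and 0.732 CPM. The groups did not overlap, and HCN4F-Sham replicate 4 was the lowest library. These levels come from 5 to 12 counts per Sham library and 18 to 22 per TAC library. The fitted change was 2.22-fold (log2 1.15 ± 0.36 SE, edgeR adjusted p = 0.0429). This call was lost in 9 of 15 alternative analyses. Leaving out any HCN4F heart except HCN4F-Sham replicate 1 was enough, and the highest adjusted p, 0.125, came without HCN4F-Sham replicate 4.

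Lifr, which signals together with gp130 for LIF, showed the opposite pattern. Its level was 52.4, 45.1, 47.4 and 51.2 CPM in the HCN4F-Sham hearts and 33.1, 22.7, 33.2 and 34.2 CPM in the HCN4F-TAC hearts. All TAC hearts lay below all Sham hearts, 3 of them close together and replicate 2 lower still. Lifr fell to 0.628 of its Sham level (log2 fold change -0.67 ± 0.11 SE, edgeR adjusted p = 0.000647). Without replicate 2, the library with the high atrial markers, the log2 fold change was -0.55 and the adjusted p 0.000407. In whole ventricle, fewer cells of a type and less RNA per cell cannot be told apart.

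The other receptor chains did not pass in HCN4F hearts. Il6st, the shared chain, was 146, 144, 172 and 181 CPM after Sham and 183, 177, 196 and 180 CPM after TAC. Of the TAC hearts 2 lay above the Sham range and 2 within its upper end (log2 fold change 0.19 ± 0.08 SE, edgeR adjusted p = 0.127). Osmr read 13.5, 15.4, 15.8 and 16.3 CPM after Sham and 24.0, 17.4, 14.8 and 23.4 CPM after TAC. TAC replicate 3 was inside the Sham range and the other 3 above it (log2 fold change 0.38 ± 0.14 SE, adjusted p = 0.079). Without that replicate the Osmr log2 fold change was 0.50 and passed, with an adjusted p of 0.0108. Il6ra (log2 fold change -0.07) and Il11ra1 (-0.14) differed by less than the spread between hearts, with adjusted p of 0.809 and 0.289.

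Clcf1, a cytokine that signals through gp130 and Lifr, was 1.03 to 1.77 CPM in HCN4F-Sham and 0.883 to 1.20 CPM in HCN4F-TAC. Its groups overlapped, and its log2 fold change of -0.38 ± 0.23 (SE) did not pass (adjusted p = 0.299). The cytokine Il6 was near the counting limit throughout. It had 0, 1, 0 and 0 counts in HCN4F-Sham replicates 1 to 4 and 15, 4, 0 and 3 counts in HCN4F-TAC replicates 1 to 4. Most Il6 counts after TAC came from replicate 1, which also had the highest Socs3 and Lif. The ratio of TAC to Sham, corrected for depth, was 23.8, with a 95% counting interval of 3.85 to 983 that leaves out differences between animals. Mean CPM was 0.219 ± 0.275 against 0.0114 ± 0.0228 (SD, n = 4 each, exact permutation test, two-sided, p = 0.143, where 0.0286 is the smallest value 4 against 4 hearts can give). Adjusted over the 4 Il6 comparisons this p was 0.571. Without HCN4F-TAC replicate 1 the difference in mean Il6 level fell from 0.208 to 0.0732 CPM.

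**Figure D2:**
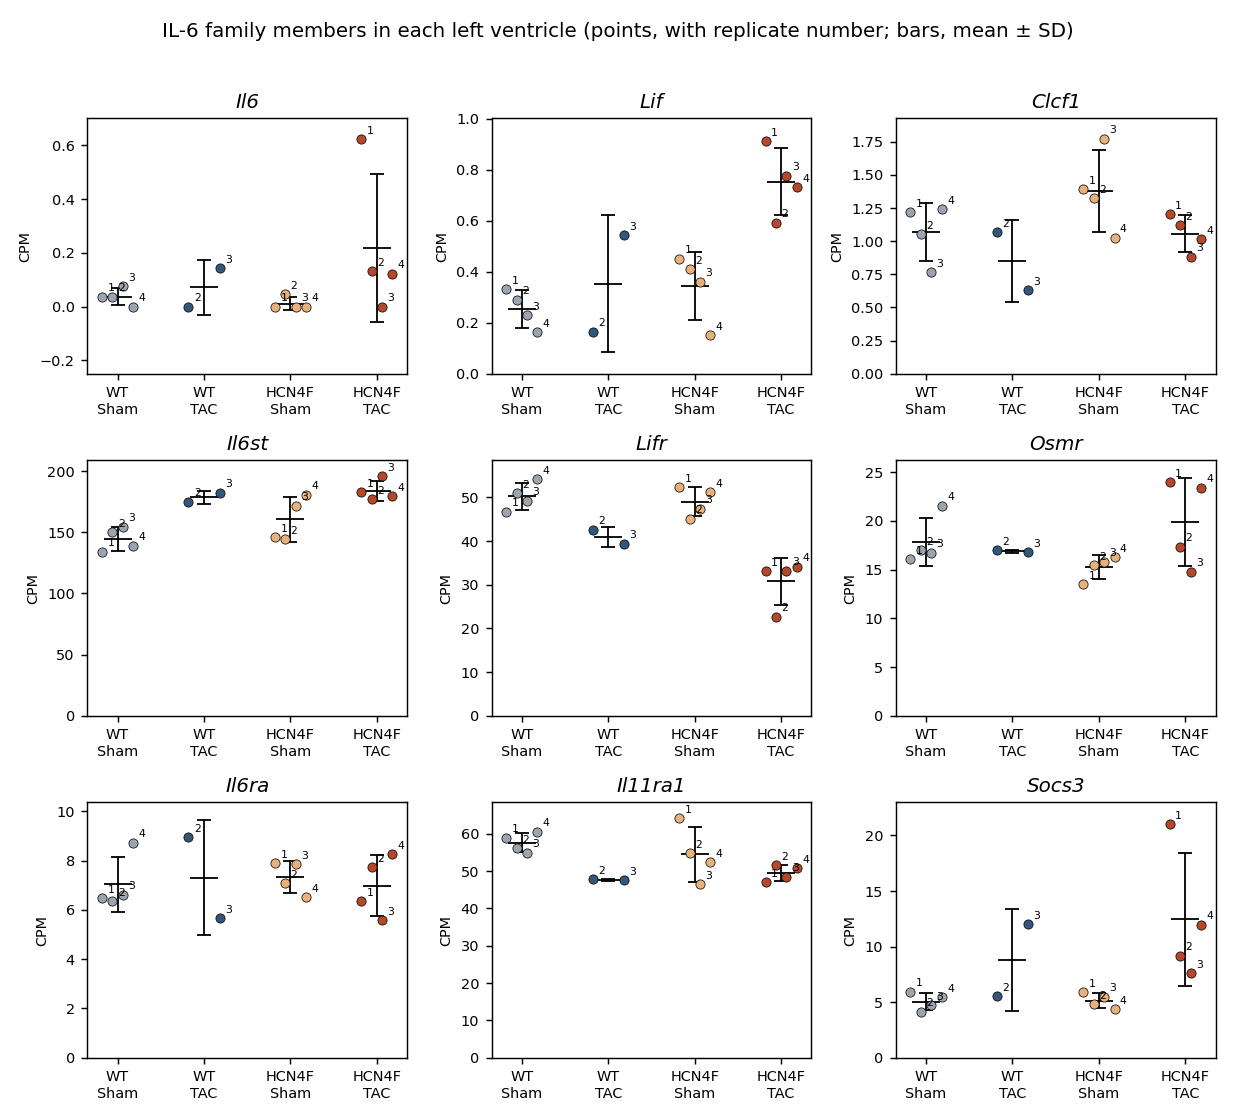
CPM of each of the 9 members in every library, 1 point per heart with its replicate number, by group; bars are the mean ± SD, and the Il6 axis extends below 0 only to hold the SD bar. Socs3 and Lif lie higher and Lifr lower in all 4 HCN4F-TAC hearts than in the HCN4F-Sham hearts, while the 2 WT-TAC hearts lie apart from each other for Socs3 and Lif.

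In WT hearts none of the 8 tested members passed between TAC and Sham. Among all tested genes 2.92% rose and 1.62% fell, and these 447 and 247 genes became 9 and 2 without WT-TAC replicate 3 and 122 and 54 without replicate 2. Without adjustment 4 members had p under 0.05 in edgeR (Il6st, Il11ra1, Lifr and Socs3), as did 3371 of all 15292 tested genes. DESeq2 fitted on all groups called 1 member (Il6st), beside 778 higher and 433 lower of 12471 genes. On the WT hearts alone edgeR called 3 members, beside 1276 higher and 733 lower of 14752 genes. DESeq2 on the WT hearts alone called 4 members, beside 1263 higher and 660 lower of 12962 genes. The median log2 fold change of the 8 members was -0.02, against -0.023 over all tested genes.

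Il6st was 134, 150, 155 and 139 CPM in WT-Sham replicates 1 to 4 and 175 and 182.5 CPM in the WT-TAC hearts. Both TAC hearts were above every Sham heart (log2 fold change 0.31 ± 0.10 SE, edgeR adjusted p = 0.0822). Il11ra1 was 54.9 to 60.6 CPM in WT-Sham and 47.9 and 47.5 CPM after TAC (log2 fold change -0.27 ± 0.10 SE, adjusted p = 0.128). For Lifr the WT-Sham hearts gave 46.7, 50.9, 49.3 and 54.1 CPM and the WT-TAC hearts 42.6 and 39.4 CPM. Its log2 fold change was -0.29 ± 0.13 (SE, adjusted p = 0.192). These were the 3 members whose WT groups did not overlap, a separation that 39.2% of all tested genes also had.

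For Socs3 the WT-Sham hearts gave 5.95, 4.14, 4.74 and 5.42 CPM. WT-TAC replicate 2, at 5.55 CPM, was inside that range, and replicate 3, at 12.02 CPM, was above it. For Lif the same replicate was the high one, with 0.163 to 0.333 CPM after Sham and 0.164 and 0.544 CPM in WT-TAC replicates 2 and 3. The fitted log2 fold changes were 0.81 ± 0.37 (SE, edgeR adjusted p = 0.218) for Socs3 and 0.57 ± 0.49 (SE, adjusted p = 0.525) for Lif. They depended on which TAC heart was kept: Socs3 gave 1.25 without replicate 2 and 0.13 without replicate 3, and Lif gave 1.10 and -0.60. Clcf1 (-0.37), Osmr (-0.08) and Il6ra (0.04) had adjusted p of 0.494, 0.816 and 0.931. Il6 had 4 counts over the 4 WT-Sham libraries and 5 over the WT-TAC libraries, all 5 in replicate 3 (exact permutation test, two-sided, p = 0.667, smallest possible 0.133).

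**Figure D3:**
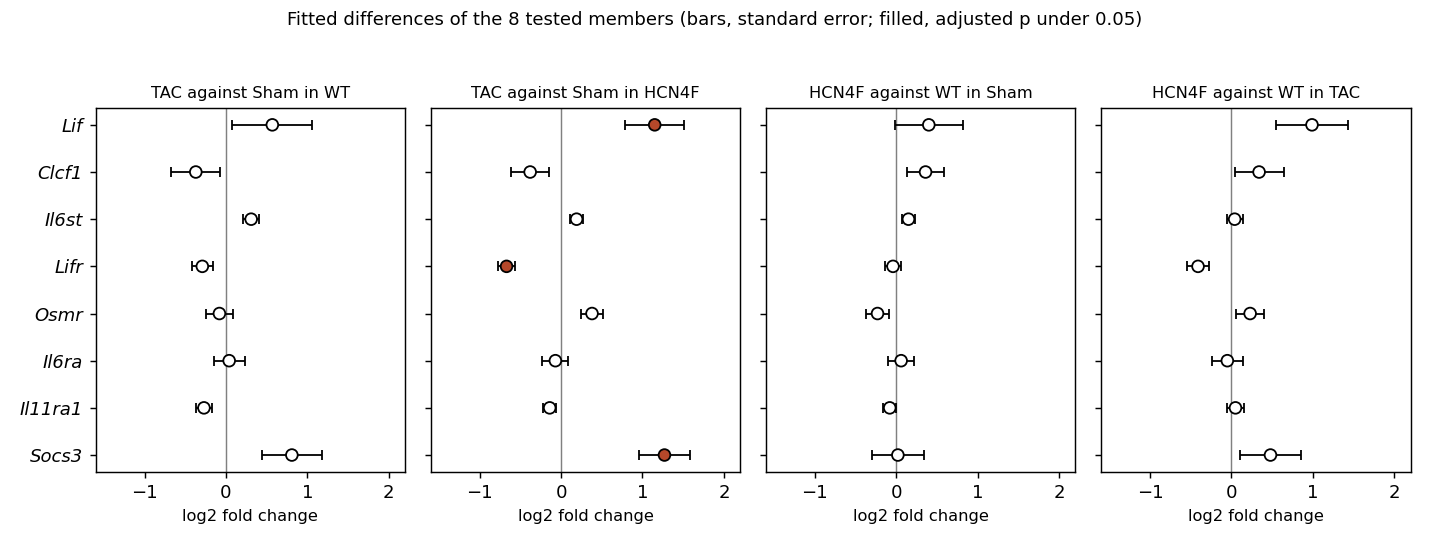
Fitted log2 fold change of the 8 tested members in the 4 comparisons; bars are the standard error and filled points passed at an adjusted p under 0.05. The filled points are Socs3 (1.27), Lif (1.15) and Lifr (-0.67) between TAC and Sham in HCN4F hearts.

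Between genotypes no member passed, after Sham or after TAC. In Sham hearts 0.229% of all tested genes were higher and 0.242% lower in HCN4F, or 35 and 37 genes. Those counts were 306 and 261 without HCN4F-Sham replicate 1, 9 and 13 without WT-Sham replicate 3, and 164 and 180 with DESeq2. The 8 members' log2 fold changes ran from -0.23 for Osmr to 0.40 for Lif, each group pair overlapped (8.56% of all tested genes did not), no member had an unadjusted p under 0.05 in edgeR, and DESeq2 called none. The smallest adjusted p was 0.375, for Il6st. Socs3 was at 5.06 ± 0.792 CPM in WT-Sham and 5.14 ± 0.699 CPM in HCN4F-Sham (SD, n = 4 each), a log2 fold change of 0.02 with a standard error of 0.32.

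After TAC 0.0589% of all tested genes were higher and 0.0523% lower in HCN4F than in WT. Those 9 and 8 genes became 323 and 131 without HCN4F-TAC replicate 3, 167 and 54 with DESeq2, and 0 and 3 with edgeR on the TAC hearts alone. Lif and Lifr had an unadjusted p under 0.05 in edgeR, as did 1904 of all tested genes. They were also the members whose groups did not overlap, a separation that 22.2% of all tested genes had. DESeq2 called no member. Lifr averaged 30.8 ± 5.41 CPM in HCN4F-TAC (SD, n = 4) and 41.0 ± 2.27 CPM in WT-TAC (SD, n = 2), a log2 fold change of -0.41 ± 0.13 (SE, edgeR adjusted p = 0.19). Of 14 alternatives 1, without a filter on low counts, called Lifr here (adjusted p = 0.0404). Lif differed by a log2 fold change of 0.99 ± 0.44 (SE, adjusted p = 0.365) and Socs3 by 0.48 ± 0.37 (SE, adjusted p = 0.642), and the WT-TAC replicate 3 value of Socs3 lay within the HCN4F-TAC range. Both depended on single hearts: with WT-TAC replicate 2 or 3 left out Lif gave 0.46 or 2.16 and Socs3 0.04 or 1.16, and Socs3 gave 0.11 without HCN4F-TAC replicate 1. For Il6 the 22 counts in HCN4F-TAC and 5 in WT-TAC gave a depth-corrected ratio of 2.52 (95% counting interval 0.932 to 8.52, exact permutation test p = 0.933). Since 15 of the 22 came from HCN4F-TAC replicate 1, the difference in mean Il6 level of 0.147 CPM was 0.013 CPM without that heart, and it was 0.0758 CPM without WT-TAC replicate 2.

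Whether the TAC response differed between genotypes was tested directly as an interaction. No member passed, and neither did any of the 15292 tested genes (0% called by edgeR, 1418 with an unadjusted p under 0.05, 37 called by DESeq2). Without HCN4F-TAC replicate 3 edgeR called 60 genes with a higher and 18 with a lower interaction value, and without a filter on low counts it called 12 and 5. Among the members the smallest adjusted p was 0.504, for Lifr (interaction log2 fold change -0.38 ± 0.16 SE), DESeq2 called none, and Lifr and Osmr had an unadjusted p under 0.05. Socs3 and Lif had interaction values of 0.46 ± 0.49 (SE) and 0.59 ± 0.62 (SE). Their rise in HCN4F hearts was therefore not shown to differ from the change in WT hearts.

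Beyond the 9 members, 43 genes of the same pathway were examined by role, of which 37 were tested. Il11 reached the test only through its HCN4F-TAC libraries and is left out of the counts for HCN4F hearts. Of the other 36, TAC raised 6 and lowered 3 in HCN4F hearts, with a median log2 fold change of 0.07, where 7.2% of all tested genes rose and 6.41% fell. Without HCN4F-TAC replicate 2 the count was 8: Stat5a (adjusted p = 0.076) and Timp1 (adjusted p = 0.0834) missed the threshold, and Bcl3 passed (adjusted p = 0.0493). In WT hearts TAC raised 5 and lowered 1, with a median of 0.15, where 2.92% of all tested genes rose and 1.62% fell. That WT count of 6 dropped to 3 without WT-Sham replicate 1 or WT-TAC replicate 2 (Junb, Myc and Socs7) and to 2 without WT-TAC replicate 3 (Junb and Myc). HCN4F-Sham hearts were higher than WT-Sham hearts for 3 and lower for none, beside 0.229% and 0.242% of all tested genes. After TAC no pathway gene passed between genotypes in edgeR (0.0589% of all tested genes were higher and 0.0523% lower), while DESeq2, and edgeR without HCN4F-TAC replicate 3, called 2.

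Among the other ligands, Il11, the ligand of Il11ra1, had 0 to 6 counts per library in HCN4F-Sham and 18, 15, 7 and 7 counts in HCN4F-TAC replicates 1 to 4. It had 4 and 1 counts in the WT-TAC libraries. Its level was at most 0.222 CPM outside HCN4F-TAC, and since its high values there decided that it was tested, no test of it is given. Osm, Ctf2, Cntf and Il27 had too few counts for the test, at most 11 in a library. Ctf1 and Ebi3 did not pass in either genotype.

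Of the other receptors, Cntfr, a chain that takes part in the recognition of Clcf1, fell in HCN4F hearts. It was 3.39, 5.80, 5.50 and 6.01 CPM after Sham and 1.95, 3.33, 3.07 and 2.68 CPM after TAC. The groups did not overlap (log2 fold change -0.90 ± 0.19 SE, edgeR adjusted p = 0.0059). In WT hearts it was 3.44 to 5.03 CPM after Sham and 2.42 and 2.06 CPM after TAC, with a log2 fold change of -0.85 that did not pass in edgeR (adjusted p = 0.063). DESeq2 fitted on all groups and edgeR with the replicate block called it lower in WT hearts too. Il27ra did not pass in either genotype, and Il11ra2, a copy of Il11ra1, had at most 6 counts in a library.

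Of the 9 signal transducers, Stat3 rose and Stat5a fell in HCN4F hearts. Stat3 was 83.7 to 114 CPM after Sham and 128 to 157 CPM after TAC (log2 fold change 0.47 ± 0.10 SE, adjusted p = 0.00463). Stat5a went from 14.7 to 17.6 CPM after Sham to 13.1 to 14.2 CPM after TAC (log2 fold change -0.29, adjusted p = 0.0349), a call lost without HCN4F-TAC replicate 2 and with the replicate block. The kinases Jak1, Jak2 and Tyk2 did not pass in any of the comparisons. In WT hearts no transducer passed, and Stat3 had a log2 fold change of 0.33 (adjusted p = 0.109).

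Among the other feedback genes, Socs7 rose after TAC in both genotypes, with log2 fold changes of 0.34 in HCN4F (adjusted p = 0.00443) and 0.56 in WT (adjusted p = 0.00284). Socs2, a feedback inhibitor best known for growth hormone signalling, rose after TAC in WT by a log2 fold change of 0.72 (adjusted p = 0.0319). It did not pass after TAC in HCN4F hearts (0.01, adjusted p = 0.974), where the Sham hearts were already at 29.6 to 36.5 CPM against 12.9 to 22.1 CPM in WT-Sham (log2 fold change 0.86, adjusted p = 0.0179). The interaction for Socs2 did not pass (adjusted p = 0.439). Socs1, an inhibitor of Janus kinases like Socs3, did not pass in any comparison.

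The list of genes that STAT3 can switch on held 16, of which 15 were tested. After TAC, Junb, Timp1 and Fgl2 rose and Lrg1 fell in HCN4F hearts. Junb, Myc and Fgl2 rose and Lrg1 fell in WT hearts. Timp1, an inhibitor of matrix-degrading proteases, was 1.12 to 4.82 CPM in HCN4F-Sham and 9.79, 11.6, 3.53 and 10.1 CPM in HCN4F-TAC, so replicate 3 lay within the Sham range (log2 fold change 1.64, adjusted p = 0.0297). This call was also lost without HCN4F-TAC replicate 2 and with the block. Fgl2, a secreted fibrinogen-like protein, had log2 fold changes of 1.23 in HCN4F (adjusted p = 0.000647) and 1.06 in WT (adjusted p = 0.0167), the WT call being lost with the replicate block. Lrg1, a secreted glycoprotein, had values of -0.74 (adjusted p = 0.00205) and -0.71 (adjusted p = 0.0307). Junb and Myc, transcription factors that many stimuli induce within minutes, stood above their WT-Sham levels in HCN4F-Sham hearts too, by log2 fold changes of 1.63 (adjusted p = 0.00377) and 1.51 (adjusted p = 0.0123). Socs3 had a log2 fold change of 0.02 between the Sham groups (edgeR adjusted p = 0.986), and its relation to Junb and Myc was not tested.

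**Figure D4:**
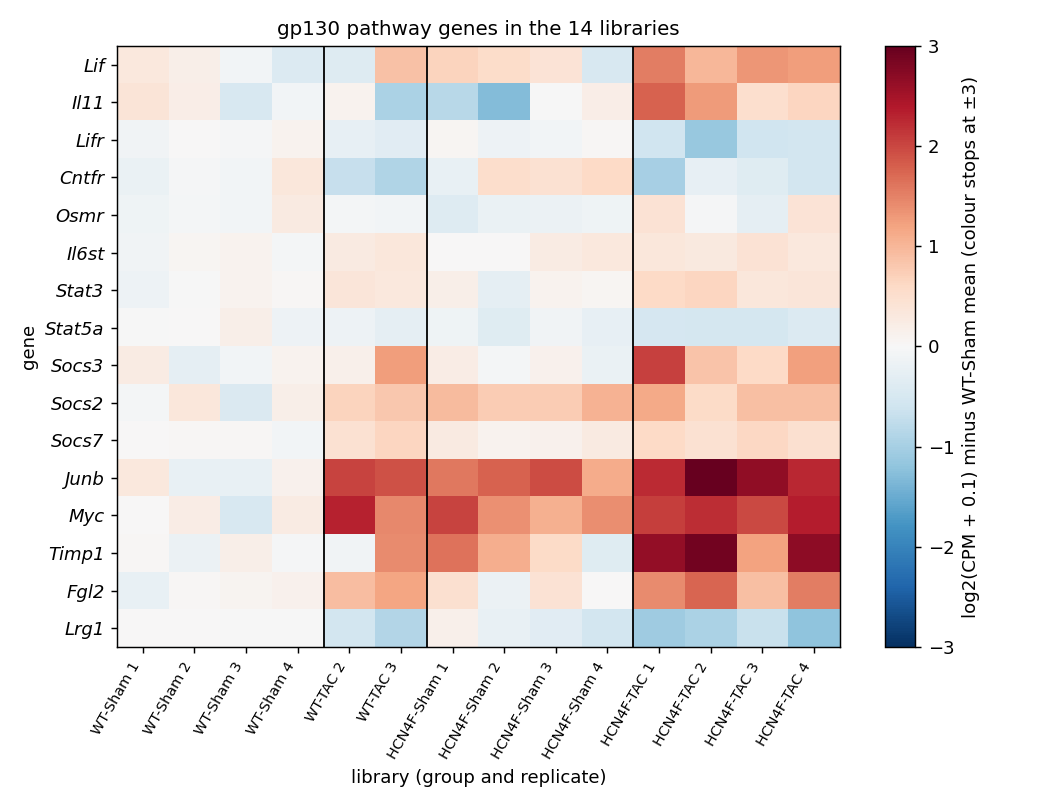
Log2(CPM + 0.1) minus the WT-Sham mean for 5 members (Lif, Lifr, Osmr, Il6st and Socs3), Il11 and the other pathway genes named in the text that passed in a comparison with all libraries, 1 column per library; the colour stops at ±3. Lif is highest in the HCN4F-TAC columns and Lifr lowest, whereas Junb and Myc are raised in WT-TAC and HCN4F-Sham columns too.

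The genes with the pattern most like Socs3 across the 14 libraries were Cd44, a hyaluronan receptor, Xirp1, a protein of muscle cell junctions, and Adam12, a membrane protease. After centring each gene on its own mean, the root mean square difference from Socs3 in log2 CPM was 0.225, 0.304 and 0.317, against an SD of 0.675 for Socs3 itself. For Lif, whose SD was 0.713, the closest were Adam12 (0.37), Snai1 (0.372) and Mum1l1 (0.384). The points share library depth and group, and the other tested members varied too little for this comparison.

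Marker levels that moved with the groups stand beside these results. The shares of all tested genes that rose and fell after TAC were 7.2% and 6.41% in HCN4F hearts and 2.92% and 1.62% in WT hearts. Between HCN4F-Sham and HCN4F-TAC, 3 markers of activated fibroblasts (Postn, Fn1 and Tnc) rose. The fourth, Cthrc1, reached the test only through its HCN4F-TAC libraries (at most 0.274 CPM elsewhere) and is not counted. The 4 summed to 56.7 to 91.9 CPM after Sham and 109 to 285 CPM after TAC. Without HCN4F-TAC replicate 2 the sum after TAC was 109 to 214 CPM, and the same 3 passed. In WT the sums were 69.0 to 74.3 and 90.9 to 107 CPM, and none of the 4 passed. Of 6 fibroblast markers 3 rose in HCN4F hearts (622 to 813 and 775 to 1270 CPM), and the same 3 passed without that library. Of 6 cardiac muscle markers 4 fell and 1 rose there (56900 to 60300 and 48000 to 54100 CPM), of which Myh6 and Actc1 were lost without it. In WT hearts 2 of the 6 fell, Tnnt2 (log2 fold change -0.39, adjusted p = 0.0257) and Tnni3 (log2 fold change -0.52, adjusted p = 0.0427), and the sum was 64700 to 67100 CPM after Sham and 59900 to 60000 CPM after TAC. Within the HCN4F-TAC hearts, replicate 3 had the lowest activated fibroblast sum (109 CPM) and the lowest Socs3, Osmr and Timp1, but its Lif (0.777 CPM) was exceeded only in replicate 1. Replicate 2 had the highest sum (285 CPM) and the highest Timp1 (11.6 CPM), but not the highest Socs3, Osmr or Lif.

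Immediate early genes, such as Fos and Egr1, summed to 70.4 to 92.0 CPM in WT-Sham, 244 to 354 in WT-TAC, 204 to 333 in HCN4F-Sham and 330 to 482 in HCN4F-TAC. In HCN4F-Sham hearts Socs3 was near its WT-Sham level, and Lif, which did not pass, lay above the highest WT-Sham heart (0.333 CPM) in 3 of 4. How the immediate early genes relate to Socs3 and Lif was not tested. Of the 8 immediate early genes 4 rose after TAC in each genotype, beside 7.2% of all tested genes in HCN4F and 2.92% in WT. In HCN4F the calls of Fos and Nr4a1 were lost without HCN4F-TAC replicate 2. After Sham 3 were higher in HCN4F than in WT hearts, beside 0.229% of all tested genes. Macrophage markers (96.3 to 157 CPM over all libraries) did not pass in any comparison. Neutrophil markers were 0.574 to 5.51 CPM, and 2 of 4 rose after TAC in WT (S100a8 and S100a9). The T cell sum was at most 1.18 CPM with none of its 3 genes tested, and the B cell sum at most 2.56 CPM, with its 1 tested gene, Cd79a, higher after TAC in HCN4F. Endothelial markers (676 to 1230 CPM) and smooth muscle and pericyte markers (490 to 809 CPM) did not pass in any comparison, and neither did the tested atrial markers. Sln was at 0 in all WT-Sham libraries and Bmp10 at 0 in all WT-TAC and HCN4F-Sham libraries. The part of these cell types and states in the members' changes was not tested.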

How the data were processed

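Left ventricular RNA of WT and HCN4F mice was sequenced. Raw counts, whole numbers of reads per gene and sample without normalization, were deposited by the authors. The submitters' processing notes name GRCm38, and the aligner, counter, annotation and use of strand are not given in the sources used here. Of 16 columns of per-sample values 2 match no sample used here and were left out. Rows without a symbol (174) held 0.00715% of counts.

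Groups and replicate numbers came from the labels. Counts were filtered with filterByExpr by group and TMM-scaled, and all 14 libraries were fitted in 1 edgeR 4.0.16 quasi-likelihood model (robust, R 4.3.3), a mean per group. Standard errors are the log2 fold change over the root of the F statistic. CPM values are TMM-scaled, without pseudocount. DESeq2 1.42.0, other filters, scalings and left-out hearts were alternatives. Scripts were tested on simulated data. Positions and exons are from GENCODE M21, promoters from RefSeq.

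The members and the lists were chosen with earlier results of these data known. Text names the 9 members, list genes that passed and the 3 genes closest to each member with an SD over 0.5. The names Osm, Ctf2, Cntf, Il27, Ctf1, Ebi3, Il27ra, Il11ra2, Socs1 and the Janus kinases complete their lists. Of the pathway list, 1 gene stays in the counts and is not reported here. The marker lists without HCN4F-TAC replicate 2 were refitted as an alternative chosen after seeing the data.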

Additional observations from a re-analysis of the deposited data

Results flagged for a closer look

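Of 27 member groups of 4 hearts, 4 held a heart far from its group, where chance flags about 1 in 20. Lifr in HCN4F-TAC replicate 2 was 22.7 CPM against 33.1 to 34.2 CPM in the other 3, and this library also had the highest atrial marker sum (31.1 CPM). Osmr in WT-Sham replicate 4 was 21.6 CPM against 16.1 to 17.0 CPM. Il6ra in the same library was 8.72 CPM against 6.35 to 6.61 CPM. Il6 in HCN4F-Sham replicate 2 was 0.0456 CPM, a single count where the other 3 hearts had 0.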

How the results depend on the processing

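Over 32 fold changes of the tested members (8 in each of 4 comparisons), 474 alternative values were computed: 438 kept their direction and their side of the threshold, 10 lost the call, 10 gained one and 16 changed sign. The fall of Lifr in HCN4F hearts passed in all 16 alternatives (log2 fold change -0.73 to -0.55, highest adjusted p 0.00632). The study also required an absolute log2 fold change above 1, which Lifr did not reach in any of them. The rise of Socs3 there passed in 15 of 16 (0.90 to 1.45) and was at the threshold without a filter (adjusted p = 0.0500), whereas that of Lif passed in 6 of 15 (0.87 to 1.33, adjusted p 0.0362 to 0.125). Between 2 and 3 members passed in HCN4F hearts under every alternative. In WT hearts the count of 0 became 1 with DESeq2 on all groups, 4 with DESeq2 and 3 with edgeR on the WT hearts alone. The counts over all tested genes in these fits are given above, and the cause was not tested. Between genotypes after TAC it became 1 (Lifr) without a filter. The pathway count for TAC in WT, 6, ranged from 2 to 6 when a heart was left out (3 without WT-Sham replicate 1 or WT-TAC replicate 2, 2 without WT-TAC replicate 3). Between genotypes after TAC it ranged from 0 to 2 (2 without HCN4F-TAC replicate 3) and was 2 with DESeq2. Changes of sign occurred only in values that had not passed. With a heart left out, log2 fold changes in WT ranged from -0.60 to 1.10 for Lif, -0.13 to 0.02 for Osmr and -0.31 to 0.35 for Il6ra, in HCN4F from -0.16 to 0.02 for Il6ra, between Sham groups from -0.07 to 0.00 for Lifr and -0.07 to 0.10 for Socs3, and between TAC groups from -0.02 to 0.74 for Clcf1 and -0.36 to 0.30 for Il6ra. The Il6 difference in WT ranged from -0.0374 to 0.106 CPM. Same-numbered hearts deviated together no more than others (18 pairs, correlation -0.12 to 0.159, against -0.239 to 0.201 in 54 other pairs). No pairing by number was seen. The check cannot exclude one, since deviations were taken from group means and those of the 2 WT-TAC hearts mirror each other. With the replicate block the member counts were 0, 3, 0 and 0 for TAC in WT, TAC in HCN4F, and HCN4F against WT in Sham and in TAC, no member's call changed, and Osmr in WT changed sign to 0.03. Among pathway genes the block lost Fgl2 and gained Cntfr in WT, and lost Stat5a and Timp1 and gained Il4ra and Myc in HCN4F. Lif and Il6 are limited by depth, with at most 22 and 15 counts in a library. Having 2 WT-TAC hearts limits every comparison that uses them.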
